A study of Mus musculus with 6 samples.

Results

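The MCM replication helicase family was followed in RNA-seq of STRA8+ germ cells from the mouse testis. Its 9 members, *Mcm2* to *Mcm10*, were chosen by gene name and make up 9 of the 54532 genes in the deposited table. All 9 had a mean of at least 1 FPKM (fragment counts corrected for gene length and library size) and were tested among 15451 genes. The study compared STRA8+ cells in which the splicing factor gene *Srsf1* had been knocked out conditionally (cKO) with control cells, 3 libraries each. The control genotype is labelled Cre and the cKO genotype *Srsf1* knockout. The labels name testis as the tissue of all 6 libraries. The Cre driver, the alleles, the age of the mice, the number of animals behind a library and the way in which STRA8+ cells were isolated are not given in the sources used here. Nothing in the labels says that libraries of a group came from separate animals, so p-values measure the spread between these libraries, which may be technical.

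MCM2 to MCM7 form the ring-shaped hexamer that is loaded onto origins before S phase and, once joined by CDC45 and the GINS complex, unwinds DNA ahead of the replication fork. MCM8 and MCM9 form a separate helicase that acts in homologous recombination and matters for fertility, and MCM10 helps to start the assembled helicase. In the testis, hexamer genes are known for expression in proliferating spermatogonia and in the germ cells that pass through the last S phase before meiosis, the stage at which STRA8 marks entry into meiosis.

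*Srsf1* stood at 84.7, 45.2 and 51.9 FPKM in control replicates 1 to 3 and at 5.08, 4.94 and 5.17 FPKM in the cKO replicates, a log2 fold change of -3.29 ± 0.22 (SE; adjusted p = 5.6e-05, limma). Between 14447887 and 17310353 fragments per library were counted on genes. The control and cKO libraries differed in their later germ cell stages. Of 10 markers of spermatids, 10 were called lower in the cKO, where 22.2% of all genes tested were. Their summed level was 2538 to 8472 FPKM in control and 7.75 to 8.67 FPKM in the cKO libraries, with control replicate 2 the highest. Of 10 markers of pachytene spermatocytes, 9 were lower, with sums of 760 to 931 FPKM in control and 127 to 148 FPKM in the cKO. *Adam3* and *Pgk2* of that list were listed at 0 in cKO replicates 1 and 2. In bulk RNA, fewer cells of a type and less RNA per cell cannot be told apart.

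Of the 9 MCM genes, 5 were higher in the cKO, 1 was lower and 3 did not pass the adjusted threshold of 0.05. *Mcm2*, *Mcm3*, *Mcm4*, *Mcm5* and *Mcm6*, all subunits of the hexamer, rose 1.31- to 1.43-fold, and *Mcm8* fell by 22.8%. Among all genes tested, 11.8% were called higher and 22.2% were called lower. The log2 fold change of all genes had a median of -0.0082. The median over the 9 members was 0.38. For 7 members the control and cKO libraries stood apart, 6 with the cKO above and 1 with the cKO below, where 21.8% of all genes stood apart with the cKO above and 28.6% with the cKO below. Quantile normalization moved the median of all genes by 0.22 on the log2 scale and changed the share of calls that were higher from 34.6% to 67.1%. It called 8 members and 33.4% of all genes higher, and *Mcm8* no longer passed the threshold (-0.24, adjusted p = 0.14). Once the all-gene median was subtracted, *Mcm8* stood at -0.34 in the fit as designed and at -0.45 under quantile normalization, and *Mcm7* at 0.18 and 0.053.

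**Figure D1:**
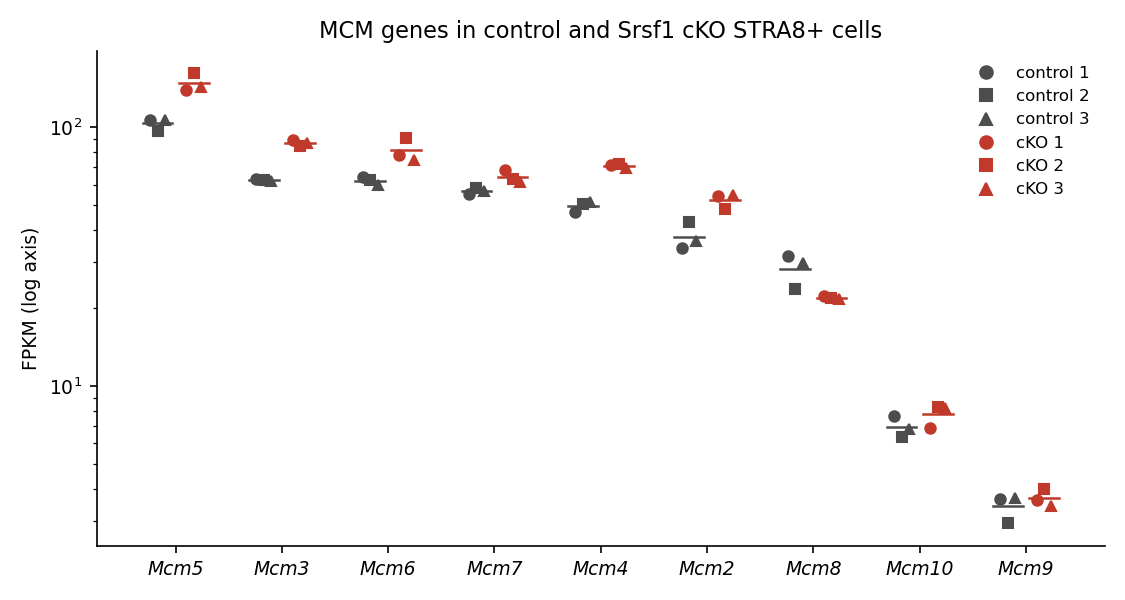
FPKM of each MCM gene (log axis) in the 3 control and 3 cKO libraries, with a bar at the mean of each group. *Mcm5* had the highest level in both groups (103.6 and 147.8 FPKM) and *Mcm9* the lowest (3.43 and 3.69 FPKM).

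The hexamer genes come first. *Mcm5*, which forms the gate of the ring together with MCM2, measured 107, 97.0 and 107 FPKM in control and 139, 162 and 143 FPKM in the cKO. All cKO libraries lay above all control libraries, with cKO replicate 2 the highest. The log2 fold change was 0.51 ± 0.083 (adjusted p = 0.0038). *Mcm3* measured 63.1, 62.4 and 61.7 FPKM in control and 89.0, 84.9 and 87.2 FPKM in the cKO. Its replicates were the tightest of the hexamer in control, with an SD of 0.69 FPKM, and its rise of 0.47 ± 0.057 had an adjusted p of 0.00093. *Mcm4* measured 47.0, 50.5 and 51.2 FPKM in control and 71.2, 72.0 and 69.6 FPKM in the cKO. Its product is a main target of the kinase that fires origins, and it was higher by 0.51 ± 0.063 (adjusted p = 0.0010) with no overlap between groups.

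*Mcm2*, whose product also carries histones at the fork, measured 34.2, 42.9 and 36.2 FPKM in control and 54.3, 48.4 and 54.7 FPKM in the cKO. The groups did not overlap, and the change was 0.47 ± 0.10 (adjusted p = 0.012). Control replicate 2 was the highest control library and cKO replicate 2 the lowest cKO library. *Mcm6* measured 64.1, 62.3 and 60.0 FPKM in control and 78.1, 90.7 and 75.0 FPKM in the cKO, again without overlap. The change was 0.38 ± 0.086 (adjusted p = 0.015), and cKO replicate 2 was the highest. The calls of *Mcm3*, *Mcm4* and *Mcm5* passed the threshold in all 15 alternative analyses, that of *Mcm6* in 14 and that of *Mcm2* in 13. Without cKO replicate 3, *Mcm2* had a log2 fold change of 0.44 (adjusted p = 0.053), and without control replicate 3, *Mcm6* had 0.35 (adjusted p = 0.056).

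*Mcm7* measured 55.4, 58.2 and 56.9 FPKM in control and 68.1, 63.1 and 61.3 FPKM in the cKO. The groups did not overlap, but the change of 0.17 ± 0.067 had an adjusted p of 0.091 (unadjusted 0.038). It passed the threshold in 3 of 15 alternatives, which were quantile normalization, FPKM recomputed from summed fragments and limma-voom. *Mcm7* shares 64 exonic bases with *Cops6* and 321 with *Ap4m1*, both on the opposite strand. Whether fragments were assigned by strand is not given in the sources used here, and reads of such bases cannot then be told apart. Of its 100-base windows, 92.6% occurred in no other annotated gene. The microRNA genes *Mir106b*, *Mir93* and *Mir25* lie within *Mcm7* on the same strand, and each had at most 1 fragment in any library. *Mir93* and *Mir25* share 88 and 84 bases with exons of *Mcm7*, where fragments cannot be told apart. These counts do not give the level of the microRNAs.

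**Figure D2:**
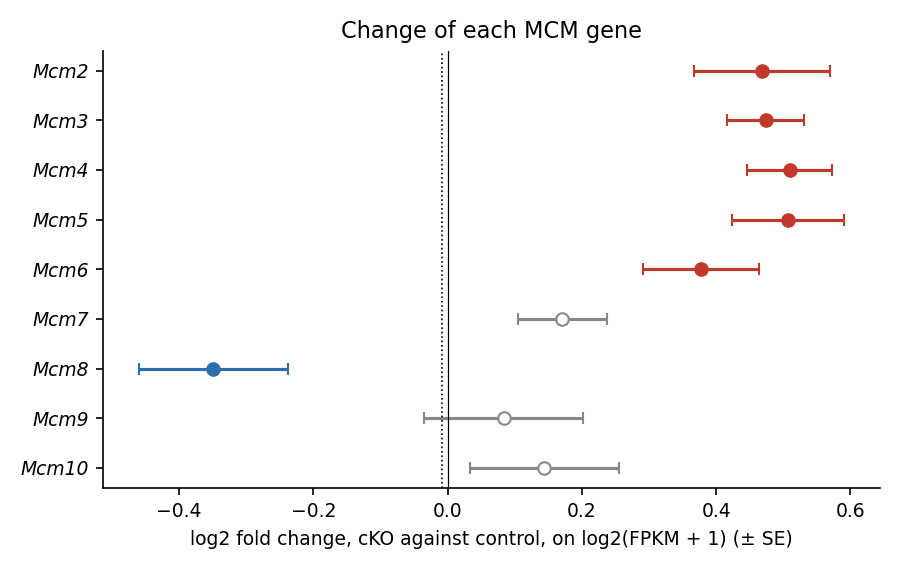
Log2 fold change, cKO against control, on log2(FPKM + 1) for each MCM gene, with its SE as a bar, filled points for calls at an adjusted p of at most 0.05 and a dotted line at the median of all genes tested (-0.0082). *Mcm2* to *Mcm6* lie between 0.38 and 0.51, *Mcm7* at 0.17 and *Mcm8* at -0.35.

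The summed FPKM of the 6 hexamer genes was 371, 373 and 373 in control and 499, 521 and 491 in the cKO, 1.35 times higher on average. The control sums had an SD of 1.48 FPKM. In control replicate 2, *Mcm2* was the highest and *Mcm5* the lowest of its group, so the ratio of *Mcm5* to *Mcm2* was 2.26 there and 3.13 and 2.95 in the other control libraries. In cKO replicate 2 the same ratio was 3.34, against 2.55 and 2.62 in the other cKO libraries.

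Shares of that sum do not change when all genes of a library are scaled by the same factor. *Mcm7* held 14.9%, 15.6% and 15.3% of the hexamer sum in control and 13.6%, 12.1% and 12.5% in the cKO. *Mcm4* held 12.7%, 13.5% and 13.7% in control and 14.3%, 13.8% and 14.2% in the cKO. The groups did not overlap for these subunits, whereas the shares of *Mcm2*, *Mcm3*, *Mcm5* and *Mcm6* overlapped. The ratio of *Mcm4* to *Mcm7* was 0.848, 0.868 and 0.901 in control and 1.05, 1.14 and 1.14 in the cKO. With 3 libraries a group, an exact permutation test of such a value cannot give a p below 0.1, and none was run.

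**Figure D3:**
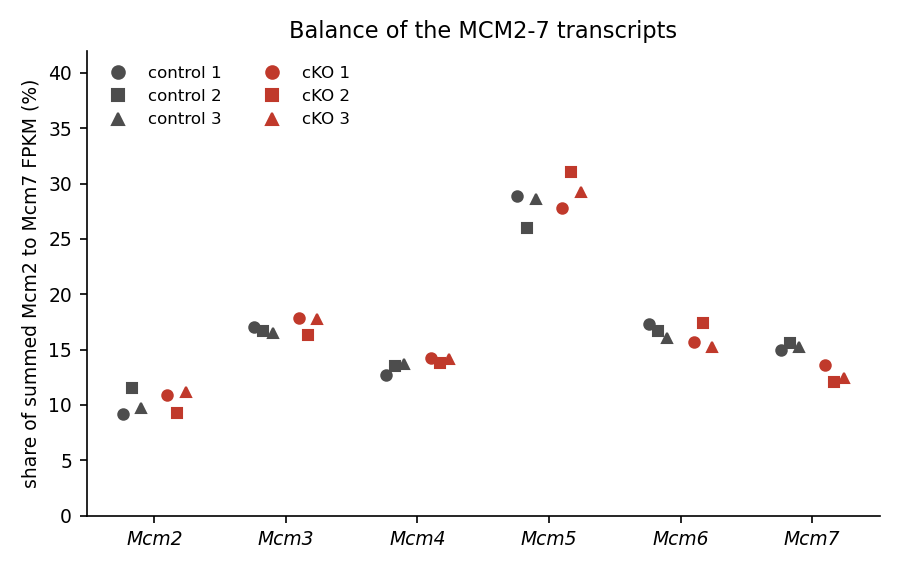
Share of each subunit in the summed FPKM of *Mcm2* to *Mcm7*, in percent, for the 6 libraries. The share of *Mcm7* was lower in each cKO library (12.1% to 13.6%) than in any control library (14.9% to 15.6%).

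By level, FPKM being per length, the order in control was *Mcm5*, *Mcm3*, *Mcm6*, *Mcm7*, *Mcm4*, *Mcm2*, *Mcm8*, *Mcm10* and *Mcm9*. In the cKO, *Mcm4* stood above *Mcm7* and the order was otherwise the same. The ranges of *Mcm3* and *Mcm6* overlapped in both groups, so this pair did not differ beyond its spread, while every other pair of neighbours had separate ranges. *Mcm5* was 1.66-fold above the next gene in control and 1.70-fold in the cKO. *Mcm2* was 1.33-fold above *Mcm8* in control and 2.40-fold in the cKO.

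*Mcm8* measured 31.7, 23.7 and 29.8 FPKM in control and 22.2, 21.8 and 21.6 FPKM in the cKO. It was the member whose cKO libraries all lay below the control libraries, with control replicate 2 nearest to them. The change was -0.35 ± 0.11 (adjusted p = 0.0495). The call lay at the threshold and passed it in 4 of 15 alternatives, with adjusted p from 0.0038 to 0.14. Leaving out any library other than control replicate 2 ended it, and without control replicate 2 the change was -0.47. *Mcm9*, the partner of MCM8, measured 3.66, 2.95 and 3.68 FPKM in control and 3.62, 3.99 and 3.44 FPKM in the cKO. The groups overlapped and the change was 0.083 ± 0.12 (adjusted p = 0.62).

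The ratio of *Mcm8* to *Mcm9* was 8.64, 8.03 and 8.09 in control and 6.15, 5.46 and 6.28 in the cKO, without overlap. *Mcm9* was counted on 412 to 580 fragments a library, the fewest of the family. It shares 1748 exonic bases with *Asf1a* on the opposite strand, and 85.0% of its 100-base windows occurred in no other annotated gene. The ratio of *Mcm8* to *Mcm3* was 0.502, 0.379 and 0.483 in control and 0.250, 0.257 and 0.248 in the cKO. Beside *Mcm8*, markers of pachytene spermatocytes and spermatids were lower in the cKO by the sums above, and their part in its change was not tested. Within control, *Mcm8* was lowest in replicate 2, where the spermatid sum was highest and the sum of early meiotic prophase markers lowest. The latter sum was 1173, 865 and 1084 FPKM in control replicates 1 to 3. *Mcm9* and *Mcm10* were also lowest in control replicate 2. The part of stage mix in these levels was not tested.

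*Mcm10* measured 7.69, 6.34 and 6.82 FPKM in control and 6.85, 8.31 and 8.20 FPKM in the cKO. The groups overlapped, and the change of 0.14 ± 0.11 had an adjusted p of 0.36. Quantile normalization called both *Mcm9* and *Mcm10* higher. Its log2 fold changes for them were 0.41 and 0.40, which relative to the median of all genes came to 0.19 and 0.18.

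In GENCODE M21 on GRCm38, the coordinates of all 9 genes equal those in the table. *Mcm3* (ENSMUSG00000041859) lies on the minus strand of chromosome 1 from 20802968 to 20820312, and *Mcm6* (ENSMUSG00000026355) on the minus strand of the same chromosome from 128331590 to 128359664. *Mcm5* (ENSMUSG00000005410) lies on the plus strand of chromosome 8 from 75109569 to 75128439. *Mcm7* (ENSMUSG00000029730) lies on the minus strand of chromosome 5 from 138164583 to 138172422, and *Mcm4* (ENSMUSG00000022673) on the minus strand of chromosome 16 from 15623897 to 15637400. *Mcm2* (ENSMUSG00000002870) lies on the minus strand of chromosome 6 from 88883474 to 88898780. *Mcm8* (ENSMUSG00000027353) lies on the plus strand of chromosome 2 from 132816141 to 132844197, and *Mcm10* (ENSMUSG00000026669) on the minus strand of that chromosome from 4989714 to 5012791. *Mcm9* (ENSMUSG00000058298) lies on the minus strand of chromosome 10 from 53536315 to 53630439 and encodes the longest protein, of 1290 residues. The other proteins have 719 (*Mcm7*) to 904 residues (*Mcm2*).

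The hexamer genes are textbook targets of E2F transcription factors, so the 250 bases before the RefSeq start were read from RefSeq promoters (GRCm38.p6). These held 9 promoters of 8 members, a pair for *Mcm7*, and none for *Mcm4*. RefSeq starts can differ from the GENCODE starts above. Both promoters of *Mcm7* and that of *Mcm9* lie inside the GENCODE span of their gene. Sites searched on both strands were the E2F octamers TTTCCCGC, TTTCGCGC, TTTGCCGC and TTTGGCGC, and CCAAT boxes. An E2F octamer was found in 3 of the 9 promoters, those of *Mcm5* and *Mcm6* and the first promoter of *Mcm7*, and in 1.86% of 32851 mouse promoters. The other promoter of *Mcm7* held none. A CCAAT box was found in 9 of 9 and in 33.8% of all promoters. The GC box GGGCGG was found in 7 of 9 (32.7% of all) and TTTGAA, the core of the CHR element, in 1 of 9, that of *Mcm2* (16.0% of all). A match is a run of letters and not a site shown to be bound. The promoters with an octamer, for *Mcm7* the first, are shown with those of *Mcm3*, a called subunit without one, and *Mcm8*, the gene that fell. Capitals mark E2F octamers and CCAAT boxes on either strand.
*Mcm5*, chr8:75109259-75109508, plus strand: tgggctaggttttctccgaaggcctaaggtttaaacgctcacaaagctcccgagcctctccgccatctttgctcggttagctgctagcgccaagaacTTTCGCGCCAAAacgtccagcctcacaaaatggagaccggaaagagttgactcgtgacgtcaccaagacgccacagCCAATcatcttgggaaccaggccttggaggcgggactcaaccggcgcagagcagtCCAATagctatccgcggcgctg
*Mcm6*, chr1:128359706-128359955, minus strand: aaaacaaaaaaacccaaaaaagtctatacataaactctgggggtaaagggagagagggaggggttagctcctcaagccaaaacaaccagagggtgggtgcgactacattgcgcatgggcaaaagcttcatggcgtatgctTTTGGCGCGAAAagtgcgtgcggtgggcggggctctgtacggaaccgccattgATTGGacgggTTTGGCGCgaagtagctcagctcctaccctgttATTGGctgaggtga
*Mcm7*, chr5:138171884-138172133, minus strand: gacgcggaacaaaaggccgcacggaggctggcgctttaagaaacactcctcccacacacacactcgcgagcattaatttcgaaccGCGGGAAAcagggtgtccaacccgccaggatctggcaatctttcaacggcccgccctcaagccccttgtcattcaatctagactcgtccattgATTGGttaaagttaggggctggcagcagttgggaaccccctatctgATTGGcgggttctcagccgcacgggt
*Mcm3*, chr1:20820313-20820562, minus strand: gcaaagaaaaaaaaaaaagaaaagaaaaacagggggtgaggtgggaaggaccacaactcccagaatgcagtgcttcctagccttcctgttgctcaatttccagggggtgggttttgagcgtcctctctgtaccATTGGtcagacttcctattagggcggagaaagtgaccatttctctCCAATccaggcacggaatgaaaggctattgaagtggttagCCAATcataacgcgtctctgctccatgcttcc
*Mcm8*, chr2:132815891-132816140, plus strand: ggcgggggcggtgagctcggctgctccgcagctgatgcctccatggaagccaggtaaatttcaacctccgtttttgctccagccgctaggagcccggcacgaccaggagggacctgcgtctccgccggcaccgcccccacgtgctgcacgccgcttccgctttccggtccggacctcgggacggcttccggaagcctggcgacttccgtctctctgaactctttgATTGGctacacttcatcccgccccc
In *Mcm5* the octamers begin 153 and 149 bases before the start and overlap on opposite strands. In *Mcm6* an overlapping pair begins at 110 and 106 bases and a further octamer at 47 bases. In *Mcm7* the octamer begins 165 bases before the RefSeq start, inside the GENCODE span of the gene. Of the genes with an octamer, *Mcm5* and *Mcm6* were called higher and *Mcm7* was not called. Of the 5 genes without these letters in the window, *Mcm2* and *Mcm3* were called higher, *Mcm8* lower, and *Mcm9* and *Mcm10* were not called. A part of E2F in these differences was not tested. The CCAAT box of *Mcm8* begins 25 bases before its start.

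Distances between genes use the deposited gene coordinates, which for the members equal those of GENCODE. *Trmt6*, which encodes a subunit of a tRNA methyltransferase, starts 86 bases from the start of *Mcm8* and runs away from it on the other strand. It measured 15.5, 15.9 and 13.0 FPKM in control and 18.6, 18.0 and 19.7 FPKM in the cKO. It was higher by 0.33 ± 0.094 (adjusted p = 0.036), opposite in sign to *Mcm8*, and its call passed in 7 of 15 alternatives. Leaving out any library other than control replicate 2 ended it. *Prkdc*, the DNA-dependent protein kinase gene 466 bases from the start of *Mcm4*, had a log2 fold change of 0.096 (adjusted p = 0.33), and *Ap4m1*, which starts 420 bases from the start of *Mcm7*, one of -0.22 (adjusted p = 0.099). Neither passed the threshold.

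Relatives and partners of the family were measured next. *Mcmbp*, which encodes a binding partner of the hexamer that takes part in its assembly and unloading, measured 39.6, 40.1 and 37.6 FPKM in control and 45.5, 43.4 and 46.4 FPKM in the cKO. The groups did not overlap, and the rise of 0.20 ± 0.063 had an adjusted p of 0.048. Leaving out any single library ended this call. The other 3 genes of the list did not pass and ranged from -0.11 to 0.064: *Mcm3ap*, the meiotic MCM-domain gene *Mcmdc2*, and *BC030867*, at the locus that RefSeq names *Hrob*, a partner of MCM8 and MCM9.

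Of 10 tested genes of origin recognition and helicase loading, 3 were higher, none was lower by limma, where 11.8% of all genes were higher and 22.2% lower, and the median was 0.22. At an unadjusted p under 0.05, 5 were higher and 0 lower, where 18.3% of all genes were higher and 26.5% lower. With limma-voom the counts were also 5 and 0, where it called 16.2% of all genes higher and 21.5% lower. With replicate number added to the fit they were 2 and 0 (891 and 2870 of all 15451 genes). Under quantile normalization they were 7 and 0 (5164 and 2527 of all genes). *Gmnc* was listed at 0 in every library. *Cdc6*, the loader that brings the hexamer to origins, measured 10.9, 11.4 and 10.4 FPKM in control and 15.9, 17.8 and 16.1 FPKM in the cKO, a rise of 0.57 ± 0.081 (adjusted p = 0.0020). *Orc1*, of the origin recognition complex, measured 27.2, 24.5 and 26.5 FPKM against 34.1, 37.8 and 34.5 FPKM, a rise of 0.43 ± 0.075 (adjusted p = 0.0050). These calls passed in all 15 alternatives. *Orc6*, another subunit of that complex, rose by 0.31 (adjusted p = 0.042), a call that leaving out control replicates 2 or 3 or any cKO library ended. The remaining 7 ranged from -0.15 to 0.53, among them *Cdt1*, the loading factor of the hexamer, at 17.8, 26.2 and 19.3 FPKM in control and 34.2, 24.3 and 34.4 FPKM in the cKO (adjusted p = 0.064).

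Of 12 genes that turn the loaded hexamer into an active helicase, 1 was higher and 1 lower, with a median of -0.0057, where 11.8% of all genes were higher and 22.2% lower. At an unadjusted p under 0.05, 2 were higher and 2 lower, beside 18.3% and 26.5% of all genes. With limma-voom the counts were 2 and 1, beside 16.2% and 21.5% of all genes. With replicate number added to the fit they were 1 and 1 (891 and 2870 of all 15451 genes). Under quantile normalization they were 3 and 1 (5164 and 2527 of all genes). *Cdc45*, the cofactor that joins the ring, measured 38.2, 33.6 and 37.2 FPKM in control and 50.3, 51.5 and 50.7 FPKM in the cKO, a rise of 0.48 ± 0.070 (adjusted p = 0.0023). *Gins1*, a subunit of the GINS complex that joins the same ring, measured 21.5, 20.3 and 21.6 FPKM in control and 16.9, 14.3 and 15.1 FPKM in the cKO, a log2 fold change of -0.43 ± 0.083 (adjusted p = 0.0075). Neither gene had overlapping groups, and both calls passed in all 15 alternatives. The other genes of the list ranged from -0.34 to 0.22.

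At the fork, 6 of 27 tested genes were higher and 4 lower (median 0.15), where 11.8% of all genes were higher and 22.2% lower. At an unadjusted p under 0.05 the counts were 8 and 4, beside 18.3% and 26.5% of all genes. With limma-voom they were 7 and 3, beside 16.2% and 21.5% of all genes. With replicate number added to the fit they were 2 and 2 (891 and 2870 of all 15451 genes). Under quantile normalization they were 12 and 2 (5164 and 2527 of all genes). *Lig1*, the ligase that seals Okazaki fragments, measured 85.0, 82.1 and 92.1 FPKM in control and 128, 134 and 120 FPKM in the cKO (0.56, adjusted p = 0.0016). *Rpa2*, of the single-strand binding complex, rose by 0.44 (adjusted p = 0.0040) and *Rfc5*, of the clamp loader, by 0.46 (adjusted p = 0.020). *Rfc2*, of the same clamp loader, fell by 0.47 on the log2 scale (adjusted p = 0.0083). *Pole3*, an accessory subunit of polymerase epsilon, measured 58.7, 48.9 and 48.3 FPKM in control and 33.2, 39.4 and 32.3 FPKM in the cKO (-0.56, adjusted p = 0.0084), and *Pold3*, an accessory subunit of polymerase delta, changed by -0.26 (adjusted p = 0.025). Subunits of the clamp loader were thus called in opposite directions, as were *Rpa2* and *Rpa1* of the single-strand binding complex. *Rpa1* changed by -0.23 (adjusted p = 0.0495), a call that leaving out any single library ended. Leaving out control replicates 1 or 3 or cKO replicates 1 or 3 ended the calls of *Rfc5* and *Pold3*.

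Of 11 genes for nucleotide and chromatin supply in S phase, 2 were higher and 1 lower (median 0.11), where 11.8% of all genes were higher and 22.2% lower. At an unadjusted p under 0.05 the counts were 2 and 2, beside 18.3% and 26.5% of all genes. With limma-voom they were 2 and 0, beside 16.2% and 21.5% of all genes. With replicate number added to the fit they were 0 and 0 (891 and 2870 of all 15451 genes). Under quantile normalization they were 5 and 0 (5164 and 2527 of all genes). The called genes were *Rrm1*, of ribonucleotide reductase (0.24, adjusted p = 0.034), the thymidylate synthase gene *Tyms* (0.34, adjusted p = 0.046) and *Chaf1a*, of the histone chaperone CAF-1 (-0.26, adjusted p = 0.037). Leaving out any single library ended the calls of *Rrm1* and *Chaf1a*, and any but control replicate 2 that of *Tyms*. Of 8 genes of proliferation, none was called by limma on log2(FPKM + 1), with a median of 0.32. At an unadjusted p under 0.05, 4 of them were higher and 1 lower, beside the 18.3% and 26.5% of all genes. limma-voom called 4 higher and 0 lower, beside the 16.2% and 21.5% of all genes. With replicate number added to the fit the counts were 0 and 0, and under quantile normalization 4 and 0.

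Among 13 genes of the E2F and pocket proteins, which control the transcription of S phase genes, 2 were higher and 2 lower (median -0.0087), where 11.8% of all genes were higher and 22.2% lower, so the shares lay near those of all genes. The counts were also 2 and 2 at an unadjusted p under 0.05 (18.3% and 26.5% of all genes) and with limma-voom (16.2% and 21.5%). With replicate number added to the fit they were 0 and 0 (891 and 2870 of all 15451 genes). Under quantile normalization they were 4 and 1 (5164 and 2527 of all genes). *E2f1*, an activator, measured 33.0, 29.7 and 32.0 FPKM in control and 22.5, 25.8 and 25.3 FPKM in the cKO (-0.35, adjusted p = 0.016). The repressor *E2f6* changed by 0.52 (adjusted p = 0.018), the pocket protein gene *Rb1* by 0.37 (adjusted p = 0.033) and its relative *Rbl2* by -0.46 (adjusted p = 0.041). The calls of *E2f1* were lost without control replicates 1 or 3, those of *E2f6* without these or cKO replicates 1 or 3, those of *Rb1* without any library but control replicate 1, and those of *Rbl2* without any library.

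**Figure D4:**
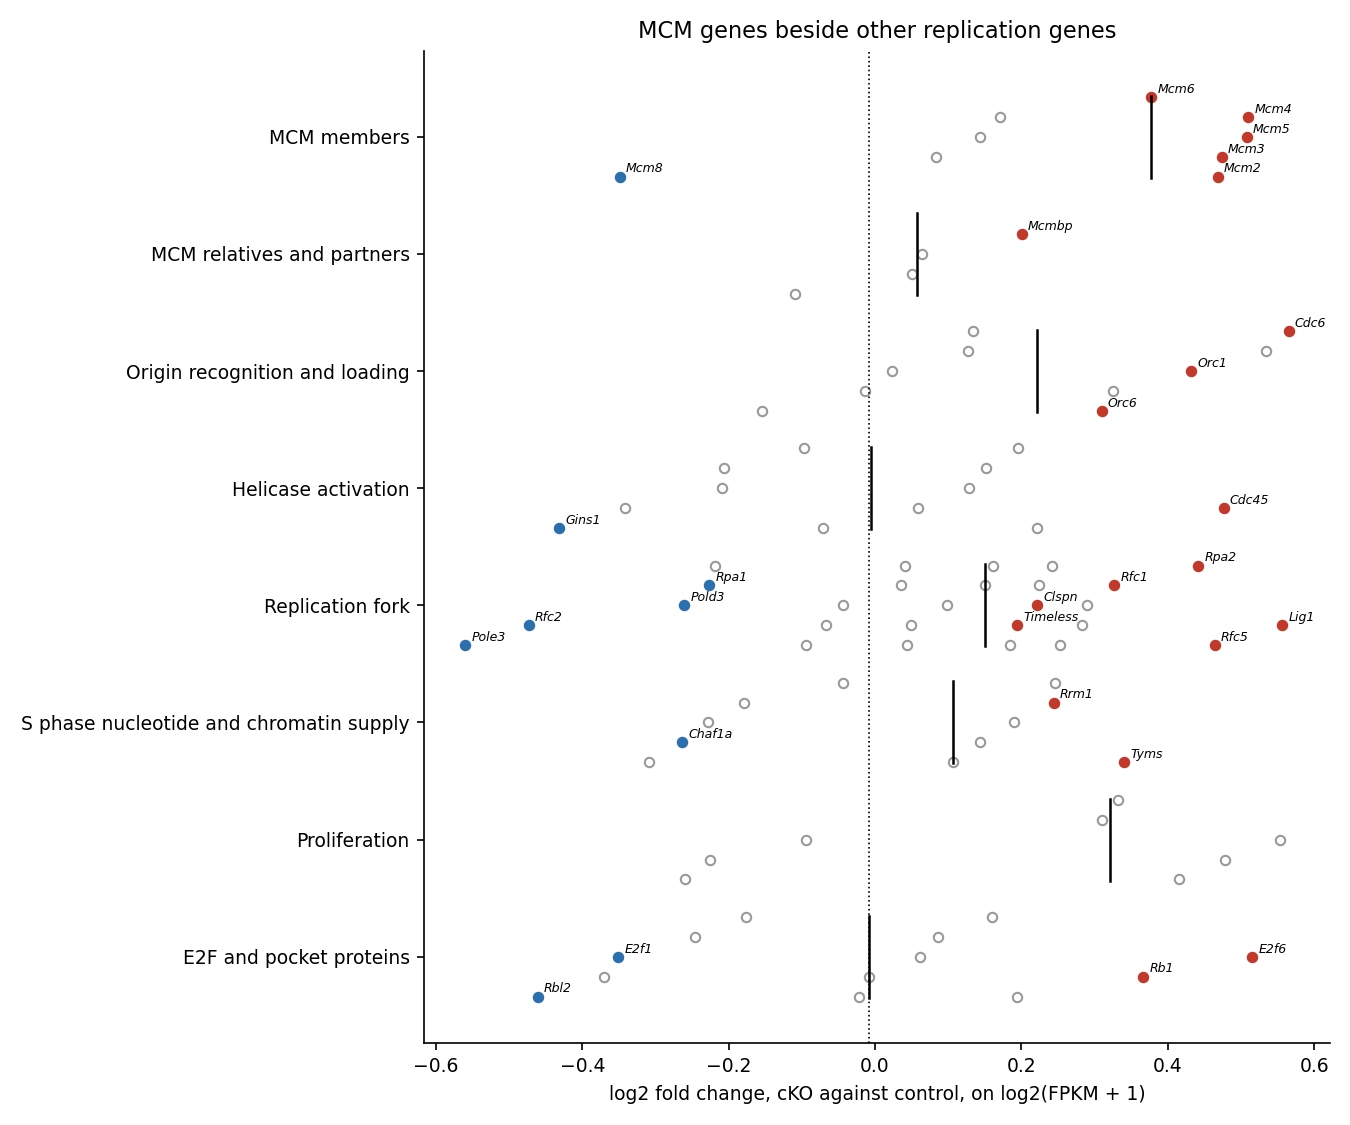
Log2 fold change, cKO against control, on log2(FPKM + 1) of the genes tested in each list, with filled points for calls at an adjusted p of at most 0.05 and a bar at each list's median. The dotted line is the median of all genes tested (-0.0082). The 9 MCM members had a median of 0.38 and the 27 fork genes one of 0.15.

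The level of the hexamer was set beside markers of the stages that STRA8+ cells span. *Stra8* itself did not pass the threshold (0.15, adjusted p = 0.36). The summed FPKM of 10 undifferentiated spermatogonia markers was 56.8 to 70.8 in control and 62.7 to 71.3 in the cKO. Of their 9 tested genes *Ret* was called higher (0.57) and *Id4* lower (-1.30), where 11.8% of all genes were higher and 22.2% lower. The summed FPKM of 10 differentiating spermatogonia markers was 661 to 810 in control and 686 to 866 in the cKO. Of the 9 tested genes 1 was called, *Dmrtb1*, as lower (-1.35), where 22.2% of all genes were called lower. The other 8 had log2 fold changes above 0 that did not pass the threshold, up to 0.36 (median of the list 0.23). For 3 of them all cKO libraries lay above all control libraries, as for 21.8% of all genes. The sum of 10 early meiotic prophase markers was 865 to 1173 in control and 932 to 1233 in the cKO. Of the 10 genes 2 were called, *Rec8* and *Spo11*, both as lower, a share near the 22.2% of all genes called lower. Log2 fold changes lay above 0 for 5 of the 10 (median 0.013), and for 7601 of all 15451 genes tested.

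The hexamer sum divided by the differentiating spermatogonia sum was 0.461 to 0.564 in control and 0.570 to 0.759 in the cKO. That ratio leans on *Uchl1*, the highest gene of the list, at 228, 340 and 234 FPKM in control and 395, 230 and 369 FPKM in the cKO. Divided by the sum of 5 germ cell markers, the hexamer sum was 0.213 to 0.249 and 0.274 to 0.314, also without overlap. Of these 5 genes *Dazl* was called higher (0.43) and *Ddx4* (-0.24) and *Mael* (-0.43) lower, where 11.8% of all genes were higher and 22.2% lower. The ratio to a single marker thus depends on the marker. Divided by the early meiotic prophase sum it was 0.316 to 0.432 and 0.422 to 0.527, so that control replicate 2 and cKO replicate 2 overlapped. Sertoli cell markers summed to 57.8 to 86.6 FPKM in control and 48.7 to 119.6 FPKM in the cKO. Of their 7 tested genes *Rhox5* was called higher and none lower, where 11.8% of all genes were higher and 22.2% lower. Peritubular cell markers summed to 3.69 to 6.44 FPKM in control and 7.04 to 8.16 FPKM in the cKO, without overlap, and neither of the 2 tested genes of 5 was called. Leydig cell markers summed to 2.95 to 14.1 and 6.53 to 10.99 FPKM, and macrophage and blood markers to 5.12 to 8.70 and 5.45 to 6.64 FPKM, both with overlap. The part of these markers and of cell composition in the higher hexamer level was not tested.

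**Figure D5:**
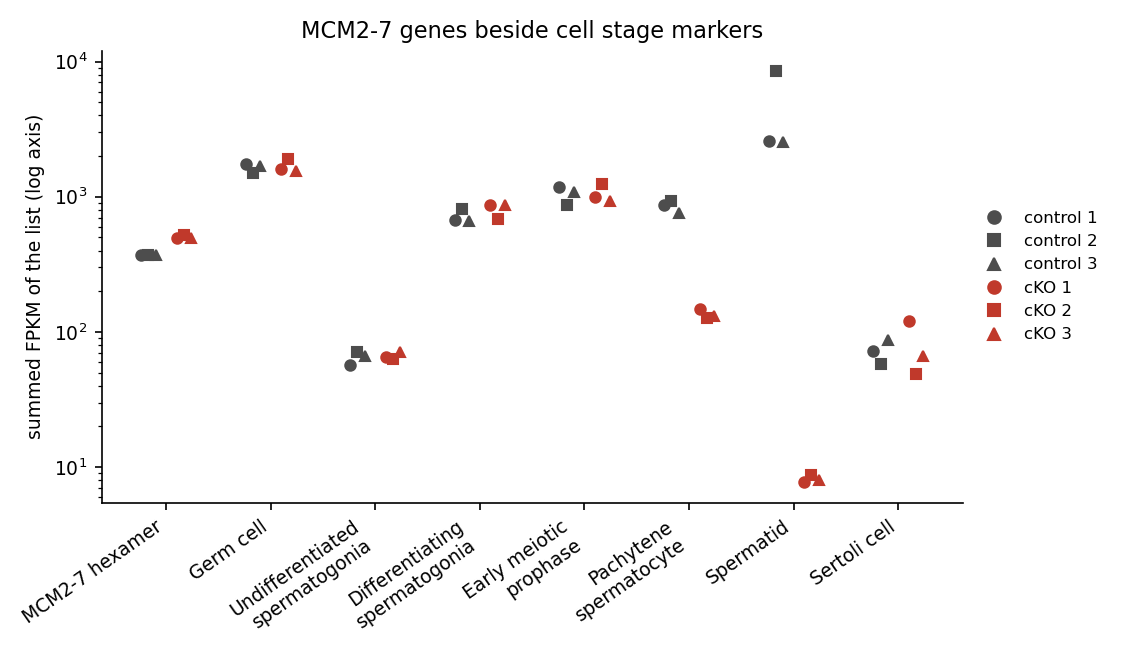
Summed FPKM (log axis) of the *Mcm2* to *Mcm7* genes and of marker lists of germ cell stages and Sertoli cells in each library. The hexamer sum was 371 to 373 in control and 491 to 521 in the cKO, and the spermatid sum 2538 to 8472 in control and 7.75 to 8.67 in the cKO.

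Of 12311 tested protein-coding genes outside the family, *Heatr3*, *Psmd5*, *Atrx*, *Myzap* and *Rce1* had the profile over the 6 libraries most like the mean profile of *Mcm2* to *Mcm7*. Likeness was the root mean square difference of centred log2(FPKM + 1) values. It was 0.023 for *Heatr3* and 0.032 for *Rce1*. *Heatr3*, a gene of ribosomal protein import, measured 19.1, 19.9 and 19.3 FPKM in control and was higher in the cKO by 0.40. Among the members themselves it was 0.045 for *Mcm3*, 0.055 for *Mcm4*, 0.080 for *Mcm6*, 0.095 for *Mcm5*, 0.11 for *Mcm2* and 0.13 for *Mcm7*. *Mcm10*, *Mcm9* and *Mcm8* stood at 0.18, 0.20 and 0.41. The mean profile holds *Mcm2* to *Mcm7* themselves and not these 3 genes, which by construction brings the former nearer.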

How the data were processed

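RNA-seq of 3 control and 3 cKO libraries of STRA8+ mouse testis cells was analysed. The submitters' processing notes name HISAT2 2.0.5 and mm10, and the counting tool is not given in the sources used here. The authors deposited 1 table of FPKM for 54532 genes with gene lengths. FPKM multiplied by length gave whole fragments for 100% of values above 0 (tolerance 0.01), 14447887 to 17310353 a library, with a library denominator 0.971 to 1.05 times the sum of fragments.

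The 15451 genes whose mean reached 1 FPKM were tested on log2(FPKM + 1), which understates changes of low genes, with limma 3.58.1 in R 4.3.3 (eBayes with trend, two-sided, Benjamini-Hochberg, threshold 0.05). The 15 alternatives changed the pseudocount, filter, scaling, variance trend, replicate block or libraries, or used limma-voom on recovered fragments. Computations were tested on simulated data. Gene annotation was GENCODE M21, and promoters came from RefSeq.

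Named genes were the members, *Srsf1*, every called gene of the lists of partners, loading and activation, up to 3 called genes per direction of the other lists, genes starting within 1000 bases of a member on the other strand, and the 5 nearest profiles. *Cdt1*, *Gmnc*, *Mcm3ap*, *Mcmdc2*, *BC030867*, *Adam3*, *Pgk2*, *Stra8*, *Dazl*, *Ddx4*, *Mael*, *Rhox5*, *Rpa1*, *Dmrtb1*, *Rec8*, *Spo11*, *Id4*, *Ret*, *Uchl1* and genes overlapping members were named outside this rule, after their values were seen. Members and lists were chosen with earlier results of these data known.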

Additional observations from a re-analysis of the deposited data

How the results depend on the processing

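The labels do not say whether same-numbered libraries share anything. Deviations of same-numbered libraries correlated at -0.0014, -0.11 and 0.016, and those of the other pairs at -0.15 to 0.13. These values cannot decide whether the libraries were paired. With the replicate block, 891 genes were higher and 2870 lower, and the calls of *Mcm2* (0.47, adjusted p = 0.050) and *Mcm8* (-0.35, adjusted p = 0.085) were lost, leaving 4 members higher and 0 lower. Genes called higher numbered 1821, 5164 under quantile normalization and 969 to 1767 with a library left out, and genes called lower 3437, or 1950 with a mean of at least 5 FPKM. Quantile normalization called 8 members higher, with *Mcm7* at 0.27, *Mcm9* at 0.41 and *Mcm10* at 0.40, and 0 lower, with *Mcm8* at -0.24, while the median of all genes moved by 0.22; relative to that median *Mcm7* stood at 0.053 and *Mcm8* at -0.45. *Mcm7* passed at 0.22 with summed fragments and at 0.22 with limma-voom. *Mcm8* lost its call at -0.35 without a filter, -0.30 with summed fragments, -0.32 with limma-voom and -0.35 without the trend, with 0 members lower in each. With a library left out, *Mcm2* ranged from 0.40 to 0.56, *Mcm6* from 0.30 to 0.43 and *Mcm8* from -0.47 to -0.27, and members called lower from 0 to 1. *Mcmdc2* turned to -0.062 and -0.0099 without control or cKO replicate 2 (up to 0.19 without another library), and *BC030867* to 0.036 and *Ap4m1* to 0.060 under quantile normalization. The cause of these changes was not tested. *Mcm9* has no value at a mean of at least 5 FPKM, since it did not reach it. *Mcm9* had the fewest fragments of the family, 412 to 580 a library.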
